A study of Mus musculus with 8 samples.

Results

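Transcripts of 10 antimicrobial protein genes of the gut that are not defensins were followed in the colon of bone marrow chimeric mice. The genes, taken by name as 10 of the 26008 listed, were Reg3b, Reg3g, Reg4, Retnlb, Lypd8, Ang4, Itln1, Lyz1, Ltf and Camp. Male C57BL/6JRj wild-type recipients, 7 weeks old, were lethally irradiated and engrafted with bone marrow of male donors aged 9 to 11 weeks, either penk-/- mice, which lack the gene for the enkephalin precursor in all their cells, or penk+/+ mice. Colon biopsies were examined from 18 weeks after the graft, and poly-A RNA of 4 animals per genotype was sequenced, 1 library each. The genotype is therefore that of blood-derived cells, and the epithelium, the nerves and the stroma of both groups are those of wild-type hosts. The comparison asks whether the loss of enkephalins in immune cells went with a change of these transcripts in the intestinal mucosa.

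Antimicrobial proteins are secreted by the intestinal epithelium and keep bacteria at a distance from the cells. Lypd8 is a glycolipid-anchored protein of colonocytes that is shed into the lumen and binds the flagella of bacteria. Reg3b and Reg3g are C-type lectins that bind and damage the bacterial wall, are best known in the small intestine, and are induced through IL-22 and STAT3 and by bacterial signals in the epithelium. Reg4 belongs to the same Reg family and marks secretory cells at the base of colonic crypts. Retnlb (RELM-beta) and Itln1 (intelectin, a lectin of microbial sugars) are products of goblet cells, induced by type 2 cytokines or by bacteria. Ang4, a ribonuclease of the angiogenin family, and Lyz1, a lysozyme that cuts peptidoglycan, are known from Paneth cells, which the mouse colon normally lacks. Ltf (lactoferrin, which binds iron) and Camp (cathelicidin) are stored in neutrophil granules and are also made by epithelia.

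The 8 libraries held 33.1 to 50.7 M reads, as computed from the steps between the deposited values, which are normalised counts. A value of 0 thus allows up to 2.18 to 3.73 normalised counts, depending on the library, for counting error only. Penk itself was at 453 to 616 normalised counts in the penk-/- chimeras and at 473 to 636 in the penk+/+ chimeras, with a log2 fold change of -0.03 (limma, adjusted p = 0.957). As the cells of the host keep an intact gene, Penk does not check the labels of these biopsies. The distal colon gene Hoxb13 was at 11777 to 14608 normalised counts and the keratin gene Krt8 at 117643 to 171586, as the labelled tissue, colon, would have it. Genes of male accessory glands, headed by the prostate gene Pbsn, summed to 227592 and 238453 normalised counts in penk-/- replicate 3 and penk+/+ replicate 4, against 10990 to 44230 in the other 6 libraries. Values without these 2 libraries are given where a result rests on them.

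The stretches before the RefSeq start sites of 5 of the genes are printed. They show the most abundant members (Lypd8 and Reg4) and those whose sequences resemble each other or a neighbour's (Reg3b with Reg3g, and Lyz1 with the myeloid lysozyme Lyz2). They come from the RefSeq promoters of GRCm38.p6, which held 9 of the 10 genes, and were placed on GRCm39 by exact match. Bases that lie in any annotated exon were left out, which shortens Reg3b. The RefSeq promoter of Reg3b ends 227 bases past the start of the annotated gene, so its printed stretch lies inside that gene. Capitals mark TATAA on the printed strand and, in Reg3b, TTCNNNGAA, a pattern that STAT proteins can bind. In Lyz1 they mark a run of 50 bases shared with the promoter of Lyz2, except for its last bases, which lie in an exon. The stretches lie at chr11:58269608-58269857 (+ strand), chr3:98129222-98129467 (+ strand), chr6:78347690-78347843 (+ strand), chr6:78445860-78446107 (- strand) and chr10:117128776-117129023 (- strand), each printed 5′ to 3′ along its gene:
Lypd8: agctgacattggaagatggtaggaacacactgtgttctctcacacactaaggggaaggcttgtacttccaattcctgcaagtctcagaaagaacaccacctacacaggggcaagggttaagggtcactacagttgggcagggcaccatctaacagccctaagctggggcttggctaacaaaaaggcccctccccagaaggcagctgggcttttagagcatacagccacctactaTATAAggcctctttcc
Reg4: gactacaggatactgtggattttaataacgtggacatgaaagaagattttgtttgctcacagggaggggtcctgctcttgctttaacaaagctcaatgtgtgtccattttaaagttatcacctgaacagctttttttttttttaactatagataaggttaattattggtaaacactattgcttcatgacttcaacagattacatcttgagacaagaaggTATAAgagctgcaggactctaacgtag
Reg3b: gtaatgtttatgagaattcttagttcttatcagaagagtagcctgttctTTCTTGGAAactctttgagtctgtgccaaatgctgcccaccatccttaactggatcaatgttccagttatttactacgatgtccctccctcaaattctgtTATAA
Reg3g: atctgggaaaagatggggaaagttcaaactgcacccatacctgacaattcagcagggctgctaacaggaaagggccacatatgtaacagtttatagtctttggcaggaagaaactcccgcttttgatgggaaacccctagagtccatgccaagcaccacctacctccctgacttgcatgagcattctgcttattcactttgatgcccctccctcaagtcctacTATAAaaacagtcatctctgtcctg
Lyz1: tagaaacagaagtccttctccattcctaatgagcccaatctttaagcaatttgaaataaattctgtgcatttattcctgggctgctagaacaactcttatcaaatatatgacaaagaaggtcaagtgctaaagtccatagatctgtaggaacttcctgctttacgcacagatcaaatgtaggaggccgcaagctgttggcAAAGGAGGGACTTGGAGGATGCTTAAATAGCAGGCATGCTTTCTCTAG

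In the 250 bases before the RefSeq start, Reg3b and Reg3g were identical at 181 of 261 aligned positions (69.3%), and Lyz1 and Lyz2 at 206 of 261 (78.9%). As for Reg3b, these bases reach into the annotated gene for Itln1, Lyz2 and Camp, and end 6080, 168 and 160 bases past its start. For Ltf, Ang4, Reg4, Reg3g and Lyz1 they end 20, 5, 3, 1 and 1 bases past it. TATAA stood within the last 50 bases, on the strand of the gene, in 4 of the 9 genes (Lypd8, Reg4, Reg3b and Reg3g), against 4.93% of 32851 promoters in the table. On either strand of the 250 bases it was found in 5 of the 9 genes, against 22.8% of all. TTCNNNGAA, which reads the same on both strands, was found in Reg3b and Ang4, against 7.02% of all promoters.

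The 10 genes ranged from among the most to among the least abundant transcripts of the table (the plot of values by library). Per kilobase of exon, mean levels over the 8 libraries were 263193 normalised counts for Lypd8, 6302 for Reg4, 392 for Lyz1 and 33.8 for Itln1. Those of the remaining 6 were 11.7 for Ang4, 8.27 for Reg3b, 6.29 for Ltf, 5.23 for Retnlb, 2.88 for Reg3g and 2.26 for Camp. From Lypd8 down to Ang4, each gene was above the next in this order in all libraries, without overlap of the ranges. The ranges per kilobase of Ang4 and the 5 genes after it overlapped from one neighbour to the next, and their order is not resolved. Ranked by mean normalised count among all genes, Lypd8 came at rank 2 and Reg4 at rank 979, whereas Camp came at rank 24244.

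**Figure D1:**
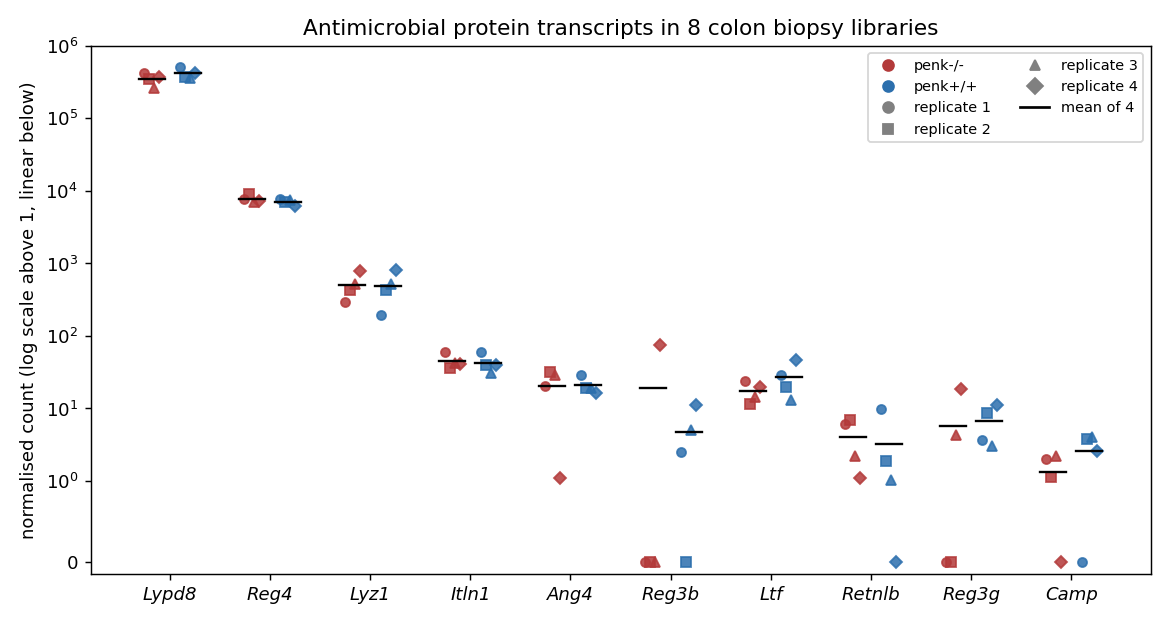
Normalised counts of the 10 genes (vertical axis, logarithmic above 1 and linear below) in the 4 penk-/- and 4 penk+/+ libraries, with 1 symbol per replicate and bars for the mean of 4. Values of both genotypes overlap for each gene, and Lypd8 lies between 266028 and 512451 while Camp stays below 4.09.

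Lypd8 (ENSMUSG00000013643, GRCm39 chr11:58269863-58281554, + strand) took 0.722% to 1.22% of the normalised counts of a library. The penk-/- libraries held 417927, 352560, 266028 and 368435 normalised counts in the order of their replicate numbers. The penk+/+ libraries held 512451, 371406, 363633 and 427977. Penk-/- replicate 3 was the lowest of all and penk+/+ replicate 1 the highest, and the other values of both genotypes overlapped. The mean of the penk-/- animals was 351237 ± 63260 and that of the penk+/+ animals 418867 ± 68664 (SD, n = 4 each), with p = 0.171 in a two-sided exact permutation test, which can give no p below 0.0286 with 4 against 4. The log2 fold change was -0.26 (95% confidence interval -0.67 to 0.16, limma, adjusted p = 0.697).

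Lypd8 moved with the summed transcripts of epithelial markers in the biopsies. The 10 epithelial marker genes summed to 365430 normalised counts in penk-/- replicate 3, the lowest, and to 528994 in penk+/+ replicate 1, the highest, which are also the extremes of Lypd8. Per 1000 normalised counts of these markers, Lypd8 was at 797 ± 51.4 in penk-/- and at 860 ± 87.1 in penk+/+ chimeras (SD, n = 4 each, p = 0.286, two-sided exact permutation test). With the epithelial score as a covariate in limma, the log2 fold change was -0.11 (adjusted p = 0.519), and without the 2 libraries rich in Pbsn it was -0.12 (adjusted p = 0.910). In bulk biopsies, fewer cells of a type and less RNA per cell cannot be told apart.

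Over the 8 libraries, Lypd8 rose with the mean log2 level of 8 surface colonocyte markers, such as the water channel Aqp8 and the anion exchanger Slc26a3 (r = 0.979, p = 0.000223, adjusted p = 0.00486, rho = 0.976, p = 0.000397, adjusted p = 0.00972, exact permutation over 40320 pairings). It also rose with the 10 epithelial markers (r = 0.958, p = 0.000298, adjusted p = 0.00486, rho = 0.929, p = 0.00223, adjusted p = 0.0365, exact permutation). It fell with 7 macrophage markers, among them Csf1r and the complement genes C1qa to C1qc (r = -0.88, p = 0.000174, adjusted p = 0.00486, rho = -0.98, p = 0.000397, adjusted p = 0.00972, exact permutation). The colonocyte score was highest and the macrophage score lowest in penk+/+ replicate 1, and the reverse held in penk-/- replicate 3. Single genes of the lists had other extremes, as Slc26a3 was highest in penk+/+ replicate 4 and the complement genes in penk-/- replicate 4. Without the 2 libraries farthest from the median of the markers, r was 0.957, 0.854 and -0.72 for the 3 lists, and without the 2 libraries rich in Pbsn it was 0.967, 0.897 and -0.99. Over those 6 libraries the relation to surface colonocyte markers was called (adjusted p = 0.034, exact permutation), whereas those to epithelial and to macrophage markers were not (adjusted p = 0.0544 each, exact permutation). These were 3 of 49 relations between 7 genes and 7 marker lists, chosen after the data were seen. None of the relations of the other 6 genes reached an adjusted p of 0.05 over the 8 libraries, and 9 of the 49 had an unadjusted p below it in the exact permutation test.

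**Figure D2:**
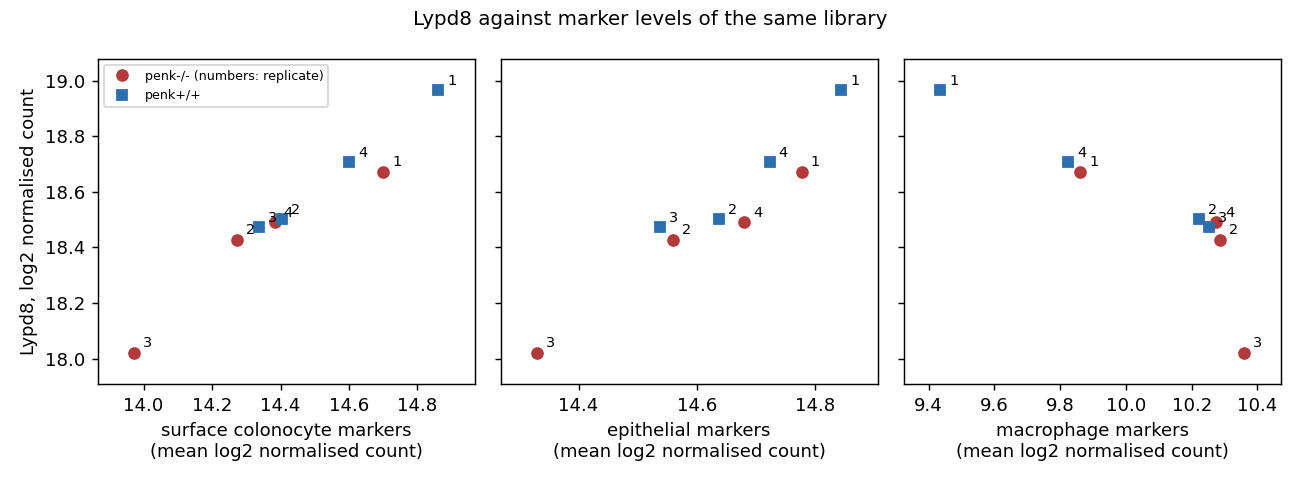
Lypd8 (vertical axes, log2 normalised count) against the mean log2 normalised count of surface colonocyte, epithelial and macrophage markers (horizontal axes) in 8 libraries, with circles for penk-/-, squares for penk+/+ and numbers for replicates. Points run upward in the left and middle panels and downward in the right panel, with r of 0.979, 0.958 and -0.88.

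Reg4 (ENSMUSG00000027876, GRCm39 chr3:98129468-98144066, + strand) was the steadiest of the 10. The penk-/- libraries held 7832, 9029, 7146 and 7195 normalised counts. The penk+/+ libraries held 7766, 7084, 7428 and 6113. The highest library was penk-/- replicate 2 and the lowest penk+/+ replicate 4, 1.48-fold apart, and the other 6 lay between 7084 and 7832. Means were 7800 ± 877 (SD, n = 4) and 7098 ± 713 (SD, n = 4), a log2 fold change of 0.14 (95% confidence interval -0.08 to 0.35, limma, adjusted p = 0.699, and p = 0.314 in a two-sided exact permutation test). Per 1000 normalised counts of epithelial markers, Reg4 stood at 18.0 ± 2.79 in penk-/- and at 14.7 ± 1.52 in penk+/+ chimeras (SD, n = 4 each, p = 0.0857, two-sided exact permutation test).

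Reg3b and Reg3g, the inducible lectins, were at or near 0 in most libraries. Reg3b (ENSMUSG00000071356, GRCm39 chr6:78347640-78350455, + strand) was at 0, 0, 0 and 76.2 normalised counts in penk-/- libraries. It was at 2.49, 0, 5.11 and 11.1 in penk+/+ libraries. By the mean, penk-/- libraries (19.1 ± 38.1, SD, n = 4) were above penk+/+ libraries (4.69 ± 4.79, SD, n = 4), opposite in direction to the log2 fold change. A single animal, penk-/- replicate 4, gave 69 of the reads of this gene, against 13 in the next library. Only through this library did Reg3b reach the mean of 10 normalised counts required for the test, where its log2 fold change was -0.44, with a 95% confidence interval from -3.63 to 2.76 (limma, adjusted p = 0.953). Without penk-/- replicate 4, it was -2.00 (adjusted p = 0.648), and without the libraries rich in Pbsn it was 0.62 (adjusted p = 0.949). Reg3g (ENSMUSG00000030017, GRCm39 chr6:78443246-78445859, - strand) was at 0, 0, 4.36 and 18.8 in penk-/- libraries. It was at 3.73, 8.56, 3.07 and 11.1 in penk+/+ libraries. Its highest value fell in the same animal as that of Reg3b, penk-/- replicate 4, and the second highest of both in penk+/+ replicate 4. In mature transcripts, Reg3b and Reg3g share 5 words of 31 bases, which are 0.299% of the words of Reg3b.

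Ang4, Itln1 and Retnlb, known from goblet and Paneth cells, were low. Ang4 (ENSMUSG00000060615, GRCm39 chr14:51990721-52011053, - strand) was at 20.2, 32.1, 29.1 and 1.10 normalised counts in penk-/- libraries. It was at 28.6, 19.0, 19.4 and 16.3 in penk+/+ libraries. The low value was that of penk-/- replicate 4, the animal high in Reg3b, with 1 read against 19 to 40 in each of the others. The log2 fold change was -0.56 (95% confidence interval -2.32 to 1.20, limma, adjusted p = 0.867), and 0.37 without that library (adjusted p = 0.817). Without the libraries rich in Pbsn, it was -1.01 (limma, adjusted p = 0.808). The transcripts of Ang4 share 15.7% of their words of 31 bases with other genes, most often Ang5, so reads may have been split or lost between copies.

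Itln1 (ENSMUSG00000038209, GRCm39 chr1:171345690-171368943, - strand) was at 60.6, 36.6, 42.2 and 40.9 normalised counts in penk-/- libraries. It was at 61.0, 39.9, 30.7 and 39.4 in penk+/+ libraries. Replicate 1 of each genotype was the highest, and the others lay between 30.7 and 42.2. The log2 fold change was 0.09 (95% confidence interval -0.47 to 0.65, limma, adjusted p = 0.940). Retnlb (ENSMUSG00000022650, GRCm39 chr16:48637219-48639255, + strand) was at 6.06, 6.87, 2.18 and 1.10 in penk-/- libraries. It was at 9.96, 1.90, 1.02 and 0 in penk+/+ libraries. With at most 8 reads in a library, it was left out of the test, and the ranges of the genotypes overlapped.

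Lyz1 (ENSMUSG00000069515, GRCm39 chr10:117123698-117128775, - strand) was the third in abundance and differed more between animals of a genotype than between genotypes. The penk-/- libraries held 291, 425, 523 and 786 normalised counts. The penk+/+ libraries held 195, 424, 528 and 818. The range within penk+/+ was 4.19-fold and within penk-/- 2.7-fold, whereas penk-/- chimeras averaged 506 ± 209 and penk+/+ chimeras 491 ± 258 (SD, n = 4 each). The log2 fold change was 0.12 (95% confidence interval -0.83 to 1.07, limma, adjusted p = 0.956, and p = 0.886 in a two-sided exact permutation test). Without the libraries rich in Pbsn, the log2 fold change of Lyz1 was 0.38 (limma, adjusted p = 0.861). Of the words of 31 bases in its transcripts, 34.5% occur in other genes, 31.9% in Lyz2, a gene of macrophages and neutrophils. Lyz2 stood at 6562 ± 1262 normalised counts in penk-/- and at 5732 ± 992 in penk+/+ chimeras (SD, n = 4 each). How reads shared by both lysozymes were counted is not given in the sources used here, and the level of Lyz1 is uncertain to that extent. Of 8 Paneth cell markers, 7 were listed, and they summed to 3095 to 11340 normalised counts in penk-/- and to 3555 to 11006 in penk+/+ libraries. Most came from Nupr1 and Mmp7, which other cells also express. Both upper ends were libraries rich in Pbsn, with Mmp7 at 9129 in penk-/- replicate 3 and at 8712 in penk+/+ replicate 4. Without these libraries, the sums were 3095 to 3966 in penk-/- and 3555 to 5255 in penk+/+ libraries. All 6 markers that were tested had a lower estimate in penk-/- chimeras, and 0 were called. For Mmp7 the 95% confidence interval ran from -6.86 to 6.42 (limma). The defensin genes Defa24 and Defa30 did not overlap between genotypes and were lower in penk-/-, as were 2.74% of all genes tested. Defa24 was at 1.01 to 12.2 normalised counts in penk-/- and 22.8 to 37.3 in penk+/+ libraries (log2 fold change -2.37, limma, adjusted p = 0.339). Defa30 was at 21.2 to 82.9 in penk-/- and at 97.0 to 267 in penk+/+ libraries (log2 fold change -1.84, limma, adjusted p = 0.339). Their part in the level of Lyz1 was not tested.

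Ltf (ENSMUSG00000032496, GRCm39 chr9:110848339-110871835, + strand) was at 24.2, 11.4, 14.5 and 19.9 normalised counts in penk-/- libraries. It was at 28.6, 20.0, 13.3 and 47.2 in penk+/+ libraries. The highest library was penk+/+ replicate 4, which is rich in Pbsn, and penk-/- replicate 3, the other library of that kind, was at 14.5. The log2 fold change was -0.52 (95% confidence interval -1.40 to 0.36, limma, adjusted p = 0.715), and -0.15 without both libraries (adjusted p = 0.951). Camp (ENSMUSG00000038357, GRCm39 chr9:109676442-109678685, - strand) was at 2.02, 1.14, 2.18 and 0 in penk-/- libraries. It was at 0, 3.80, 4.09 and 2.57 in penk+/+ libraries. With at most 4 reads in a library, no difference of Camp was detectable at this depth. Of 16 neutrophil markers, 10 were listed, and they summed to 3484 to 4769 normalised counts in penk-/- and to 4730 to 6637 in penk+/+ libraries. Most of this was Ly6g, at 3061 to 4543 in penk-/- and 4393 to 6438 in penk+/+ libraries (log2 fold change -0.42, limma, adjusted p = 0.420). The sum thus mostly follows Ly6g, and from which cells its RNA came was not tested. Of the 5 markers tested, 3 had a higher and 2 a lower estimate in penk-/- chimeras, and 0 were called. Log2 fold changes were 0.66 for Retnlg, 0.20 for Csf3r and 0.06 for Lcn2, against -0.29 for Mmp9. Mmp9, Lcn2 and Csf3r had means of 154, 62.3 and 56.5 over the 8 libraries, whereas S100a8 and S100a9, the main proteins of neutrophil cytosol, were at 0 to 8.0 and 1.01 to 13.1 normalised counts. Their part in the levels of Ltf and Camp was not tested.

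None of the 10 genes separated the genotypes. The groups overlapped for all of them, whereas they did not for 5.63% of the 19127 genes tested (2.89% higher and 2.74% lower in penk-/-). Of the 7 genes that passed the filter (a mean of at least 10 normalised counts), 0 were called at an adjusted p below 0.05, as were 0% of all genes, and 0 had an unadjusted p below 0.05 in limma, against 9.63% of all genes. Of these 7, Reg4, Itln1 and Lyz1 had a higher and Reg3b, Lypd8, Ang4 and Ltf a lower estimate on the log2 scale in penk-/- chimeras, with a median log2 fold change of -0.26 against 0.01 over all genes tested. The confidence intervals set how large a difference may have gone unseen. They were narrowest for Reg4 and Lypd8 and widest for Reg3b, as the plot of fold changes shows. At an absolute log2 fold change above 1 and an adjusted p below 0.01 in limma on log2(value + 1), 0 of the 10 genes and 0% of all genes tested were called. No count-based test, such as the authors used, was run, and with theirs the authors report a few genes called at these thresholds. By qPCR on colonic biopsies of more chimeras, they also report lower mRNA of Ltf, among others.

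**Figure D3:**
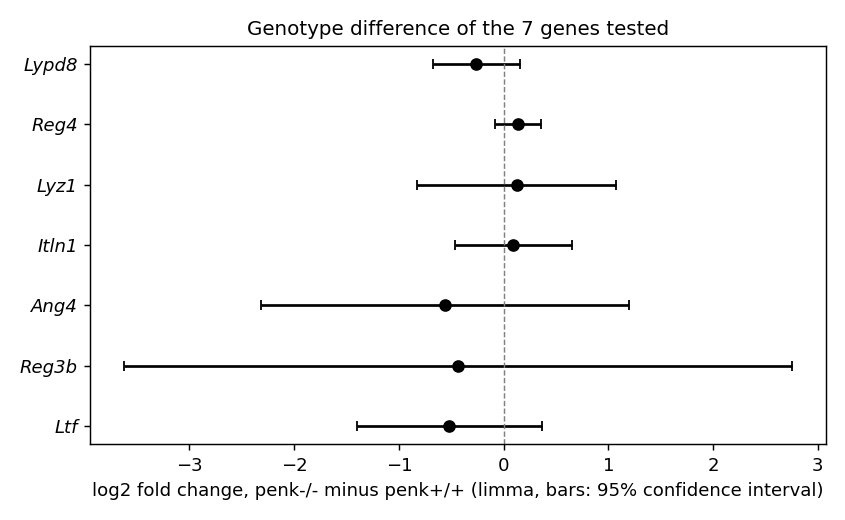
Log2 fold change (penk-/- minus penk+/+) of the 7 genes tested, in order of abundance per kilobase, with bars for the 95% confidence interval from limma over 4 libraries per genotype. Each bar crosses 0, from -0.08 to 0.35 for Reg4 and from -3.63 to 2.76 for Reg3b.

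The spread between animals of a genotype differed widely among the genes. The residual SD of the log2 values ranked Reg3b above 99.7% of all genes tested, Ang4 above 98.7%, Lyz1 above 96.0% and Ltf above 93.9%. Reg3b passed the filter only through penk-/- replicate 4, which also widens its spread, so its rank is not independent of the filter. Itln1 ranked above 77.2%, Lypd8 above 61.4% and Reg4 above 38.7%. For abundant genes, counting error had little part in this spread, as the chi-square of the reads within genotypes was 11980 per degree of freedom for Lypd8, 104 for Lyz1 and 85.2 for Reg4. It was 43.7 for Reg3b, 7.65 for Reg3g, 5.12 for Ltf, 4.94 for Ang4, 4.30 for Retnlb and 2.92 for Itln1. For Camp it was 0.897, so the values of Camp differed no more than counting error gives.

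**Figure D4:**
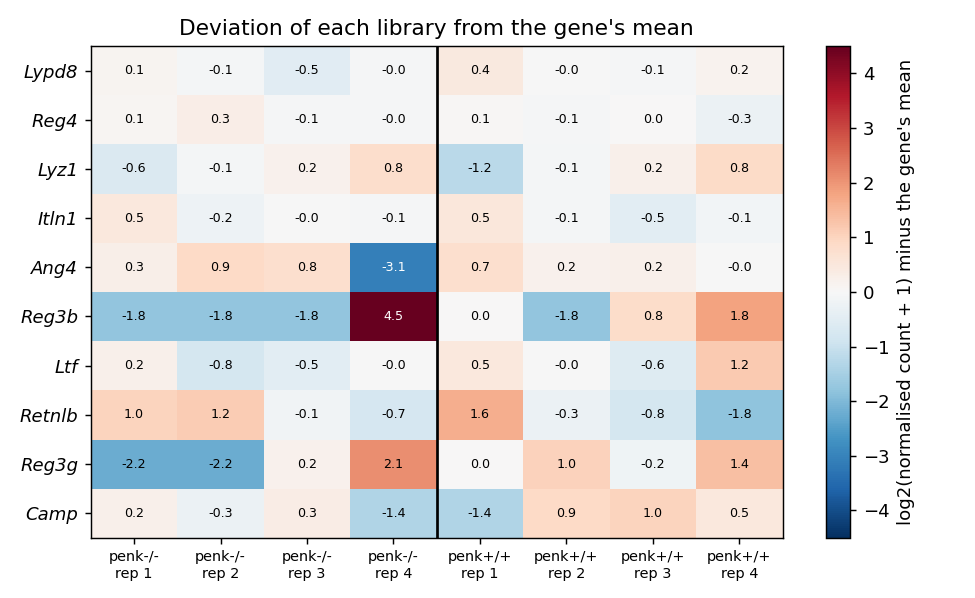
Deviation of log2(normalised count + 1) from the mean of each gene over the 8 libraries (colour and numbers), with genes in order of abundance per kilobase and libraries in columns, penk-/- to the left of the line. Penk-/- replicate 4 stands out with the highest Reg3b and Reg3g and the lowest Ang4.

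The genes did not follow a common pattern over the libraries. Of 21 pairs among the 7 genes tested, 10 had a positive Pearson correlation and 0 had an adjusted p below 0.05, and 2 had an unadjusted p below it in the exact permutation test over all pairings. Reg3b and Ang4 ran in opposite directions (r = -0.84, p = 0.0149, adjusted p = 0.312, rho = -0.72, p = 0.0559, exact permutation, 8 libraries). This relation rested on 2 animals, as r was -0.19 without penk-/- replicate 4 and penk+/+ replicate 4. Itln1 and Lyz1 also ran in opposite directions (r = -0.71, p = 0.0434, adjusted p = 0.413, rho = -0.60, p = 0.132, exact permutation, 8 libraries), and r was 0.24 without replicate 1 of both genotypes. By ranks, Lypd8 and Ltf were closest (rho = 0.905, p = 0.00456, adjusted p = 0.0958, and r = 0.661, p = 0.0787, exact permutation, 8 libraries).

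Among 14864 genes with a mean of at least 50 normalised counts, those with the most similar course over the 8 libraries differed from member to member, and their r is a description, as the highest of many. For Lypd8 they were Slfn4 (r = 0.989), Tmem45b (0.989) and Usp53 (0.989). Slfn4 ranged from 3233 normalised counts in penk-/- replicate 3 to 8919 in penk+/+ replicate 1, the same extremes as Lypd8. For Ltf they were the keratin Krt18 (r = 0.984), the cytoskeletal linker of microvilli Ezr (0.977) and Dcxr (0.973), which are all expressed in epithelium. For Lyz1 they were Lrrn4cl (r = 0.988), Pi16 (0.952), a marker of fibroblasts, and the chemokine Ccl9 (0.949). Pi16 ranged from 270 in penk+/+ replicate 1, the library lowest in Lyz1, to 791 in penk-/- replicate 4. For Reg4 they were Nvl (r = 0.971), Umps (0.953) and Dusp6 (0.950). For Itln1, Ang4 and Reg3b, the closest genes were Rpl23a (r = 0.979), Alkbh3 (0.955) and Ipp (0.917).

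The relatives of these genes were followed as a list. Of 17 relatives, 8 were tested, of which 7 had a higher and 1 a lower estimate in penk-/- chimeras, with a median log2 fold change of 0.23 against 0.01 over all genes tested, and 0 were called. Retnlg, a resistin-like gene of neutrophils, stood at 15.1, 19.5, 14.5 and 25.4 normalised counts in penk-/- libraries and at 8.71, 14.3, 10.2 and 12 in penk+/+ libraries. It was the relative whose groups did not overlap (log2 fold change 0.66, limma, adjusted p = 0.475). Of all genes tested, 2.89% had groups that did not overlap and were higher in penk-/-. Retnla, which like Retnlb encodes a resistin-like molecule, was at 920 ± 344 (SD, n = 4) and 806 ± 418 (SD, n = 4) normalised counts. Lypd8l, the neighbour and relative of Lypd8, was at 1072 ± 219 and 1100 ± 74.7 (SD, n = 4 each).

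Of 34 other antimicrobial and host defence genes, 25 were tested, of which 7 had a higher and 18 a lower estimate in penk-/- chimeras, with a median log2 fold change of -0.10 against 0.01 over all genes tested, and 0 were called. Dmbt1, a mucin-like scavenger of bacteria, had a log2 fold change of -0.42 (95% confidence interval -0.76 to -0.08, adjusted p = 0.441), from 202585 ± 26891 in penk+/+ to 151789 ± 25887 in penk-/- chimeras (SD, n = 4 each). Saa1, a serum amyloid made by colonocytes, had a log2 fold change of -0.53 (adjusted p = 0.468) and Pigr, the receptor that carries IgA into the lumen, one of -0.28 (adjusted p = 0.501) in limma. These 3 genes, with Lypd8, are among the most abundant of the colonic epithelium, and 8 of the 10 epithelial markers also had a lower estimate in penk-/- chimeras (median log2 fold change -0.15, 0 called). Their part in the lower estimates was not tested. Zg16, a lectin that aggregates Gram-positive bacteria, had a log2 fold change of -0.01 (adjusted p = 0.995), at 72716 ± 16074 and 72581 ± 14178 normalised counts (SD, n = 4 each).

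Of 22 genes that sense bacteria or carry the cytokine signals by which antimicrobial genes are induced, 21 were tested, of which 7 had a higher and 14 a lower estimate in penk-/- chimeras, and 0 were called. Nlrp6, an epithelial inflammasome sensor, had the smallest adjusted p of the list in limma (log2 fold change -0.52, adjusted p = 0.340). The lipopolysaccharide receptor Tlr4 had a log2 fold change of -0.47 (adjusted p = 0.385) and Nod1 one of 0.21 (adjusted p = 0.443). The IL-22 receptor subunit Il22ra1, which lies upstream of Reg3b and Reg3g, was at 2703 ± 569 and 3050 ± 497 normalised counts (SD, n = 4 each). Of 13 secretory lineage factors, 11 had a higher and 2 a lower estimate, and of 10 goblet cell markers 3 had a higher and 7 a lower one, with 0 called in either list. Of 6 deep crypt secretory cell markers, 4 had a higher and 2 a lower estimate, with 0 called. Over all 19127 genes tested, 9780 had a higher and 9347 a lower estimate. Dll1, which is in both secretory lists, was higher in penk-/- without overlap (log2 fold change 0.30, limma, adjusted p = 0.370), as were 2.89% of all genes tested. All 8 macrophage markers had a higher estimate in penk-/- chimeras (median log2 fold change 0.27), with 0 called.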

How the data were processed

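RNA-seq was performed by the authors on colonic biopsies of 8 chimeric mice, 4 per genotype. They made stranded, paired-end poly-A libraries, aligned and quantified the reads with STAR 2.7.8a on GRCm39, and compared genotypes by DESeq2 1.30.0. Deposited by the authors were normalised counts, that is counts divided by a size factor per library, so that the signal of a gene is comparable between libraries but not between genes, unless divided by exon length. All values were whole multiples of 1 step per library within 0.02, and reads were computed from these steps for depth and counting error.

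Of 26008 identifiers, 25776 were matched to names in GENCODE M39 (GRCm39), and 12 names had more than 1 identifier. Genotypes were compared with limma 3.58.1 (R 4.3.3, eBayes with trend) on log2(value + 1), so that fold changes of low genes are understated. The test covered 19127 genes with a mean of at least 10, was two-sided with Benjamini-Hochberg adjustment and no covariate, and was tested on simulated data. Exact permutation tests used the 70 assignments of 4 of 8 libraries, and correlations all 40320 pairings (Python 3.11.15, SciPy 1.17.1). Marker scores are the mean log2(value + 1) of the genes of a list, without Lyz2 for macrophages. Lengths and shared words of 31 bases come from GENCODE M39 transcripts. Promoters were aligned globally (match 1, mismatch -1, gap opening -1.5 and extension -0.5).

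The genes, marker lists and tests were chosen with earlier results of these data known. Named genes are Penk, the 10 genes, genes of the lists, and the 3 genes with the highest r to each gene tested. Alternatives were other pseudocounts (0.1 and 8), filters (none, or a minimum mean of 50), a limma fit with no trend, quantile normalisation, a replicate block, each replicate left out, the 2 libraries rich in Pbsn left out, and, added after seeing the data, the epithelial score as a covariate. Count tests, planned for the case that the reads could be recovered, were not run.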

Additional observations from a re-analysis of the deposited data

Results flagged for a closer look

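In 1 of 20 groups of 4 libraries examined (10 genes in 2 genotypes), a library stood apart from the rest of its group by Dixon's criterion. The criterion flags 1 in 20 groups of normally distributed values, a rate that need not hold for counts near 0. This was Reg3b in penk-/- chimeras, where replicate 4 was at 76.2 normalised counts and the other 3 libraries at 0, a gap to the nearest library of 1 times the range of the group. The same library held 1 read of Ang4 and the highest value of Reg3g, 18.8 normalised counts, and neither of these stood apart by that criterion. The cause was not tested.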

How the results depend on the processing

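None of the 7 genes tested and none of the other antimicrobial genes was called at an adjusted p below 0.05 under any alternative of the limma fit. Retnlb, Reg3g and Camp were tested under 1 alternative alone, without a filter. Pairs of genes were recomputed with a pseudocount of 8 and without the libraries rich in Pbsn, with 0 called. The smallest adjusted p among 115 recomputed log2 fold changes was 0.271, and 12 turned in direction. None of the 12 was of Reg4, Lypd8 or Ltf, although quantile normalisation set the difference of Lypd8, which was at rank 2 or 3 in each library, to 0. Over the libraries left out in turn, log2 fold changes ranged from -2.00 to 0.10 for Reg3b (above 0 without penk-/- replicate 1, 2 or 3 or penk+/+ replicate 4), from -0.96 to 0.37 for Ang4 (above 0 without penk-/- replicate 4), from -0.057 to 0.27 for Itln1 (below 0 without penk-/- replicate 1 or penk+/+ replicate 3) and from -0.26 to 0.43 for Lyz1 (below 0 without penk-/- replicate 4 or penk+/+ replicate 1). Reg3b was also above 0 with a pseudocount of 8 (0.26) and without the libraries rich in Pbsn (0.62), and Lyz1 below 0 with the epithelial covariate (-0.049). The cause was not tested.

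Among all genes, 1 was called with quantile normalisation, 1 with the replicate block, 1 with the epithelial covariate and 0 to 6 with a library left out (6 without penk-/- replicate 1), against 0. With the replicate block, 1 of the 7 genes had an unadjusted p below 0.05, and 0 to 1 had with a library left out (1 without penk-/- replicate 4). The labels do not say whether replicate numbers pair the animals. Deviations of libraries with the same number correlated at 0.145, -0.04, -0.32 and -0.16, which cannot decide whether animals shared a batch. With a pseudocount of 8, the 3 relations of Lypd8 to marker lists were called again. Without the libraries rich in Pbsn, 2 relations were called, that of Lypd8 to surface colonocyte markers and that of Itln1 to epithelial markers (r = 0.965, adjusted p = 0.034, exact permutation), while those of Lypd8 to epithelial and macrophage markers were not (adjusted p = 0.0544 each, exact permutation). Without a filter, Retnlb, Reg3g and Camp had log2 fold changes of 0.63, -1.10 and -0.52 (limma, adjusted p 0.864, 0.795 and 0.871), and a mean of at least 50 left Lypd8, Reg4 and Lyz1. Count tests with other tools were not run. Depth limits what can be said of Reg3b, Reg3g, Retnlb and Camp, which had fewer than 14 reads in most libraries. Read counts were also low for Ang4, Ltf and Itln1, at 1 to 40, 10 to 55 and 30 to 60 per library. The number of animals limits all 10 genes.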
